A study of Mus musculus with 12 samples.

Results

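The membrane-spanning 4A (Ms4a) genes examined here were Ms4a4a, Ms4a4b, Ms4a4c, Ms4a6b, Ms4a6c, Ms4a6d and Ms4a7. They are 7 of the 40840 genes listed for each library and 7 of the 21 genes whose symbol begins with Ms4a. They were taken by name as the members linked to myeloid cells, and Ms4a1, which encodes the B cell antigen CD20, was left out. Total RNA of hepatic immune cells, called hepatic macrophages in the labels, was sequenced in 12 libraries, 1 from each of 3 mice in 4 groups. WT-NCD and WT-HFD mice were wildtype C57BL/6 on normal chow diet or high fat diet. Casp11-/- NCD and Casp11-/- HFD mice were of the strain B6.129S4(D2)-Casp4tm1Yuan/J, which lacks caspase-11, on the same diets. By the methods of the study, the mice were male, were 8 to 10 weeks old when the diets began and were fed for 12 weeks. In all groups, the cells were separated from hepatocytes of the digested liver with Percoll, and the knockout is carried by the whole mouse.

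Ms4a proteins cross the membrane several times and sit beside immune receptors, whose signalling they modify. In macrophages, Ms4a4a associates with Dectin-1 (encoded by Clec7a), and Ms4a6d works with the Kupffer cell receptor Vsig4 to restrain the Nlrp3 inflammasome. Ms4a7 is a marker of tissue macrophages, Ms4a4c and Ms4a6c are abundant in monocytes, and Ms4a4b is best known from T cells, where it associates with the receptor GITR (encoded by Tnfrsf18).

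The genes form one cluster on mouse chromosome 19, from 11321039 to 11604849 of GRCm38, in which Ms4a6d and Ms4a7 lie on the minus strand and the other 5 on the plus strand. Promoter sequence of 6 of the 7 genes was found in RefSeq (GRCm38.p6), in 7 windows since Ms4a7 has a pair of starts. The promoters of neighbouring genes resembled each other in pairs, and 3 are printed because these genes were the ones whose levels were compared most closely below. They are given 5′ to 3′ from at most 120 bases before the start of transcription, without any annotated exon. Capitals mark the longest run of bases shared by Ms4a4c (chr19:11407541-11407660) and Ms4a4b (chr19:11443438-11443552), and the letters AGGAAGT in Ms4a6c (chr19:11469248-11469365). All 3 are on the plus strand.
Ms4a4c: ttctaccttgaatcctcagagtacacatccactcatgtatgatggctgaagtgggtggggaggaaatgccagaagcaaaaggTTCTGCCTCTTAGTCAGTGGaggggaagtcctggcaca
Ms4a4b: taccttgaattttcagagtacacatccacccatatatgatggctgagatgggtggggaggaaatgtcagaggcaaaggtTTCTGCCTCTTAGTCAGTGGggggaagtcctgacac
Ms4a6c: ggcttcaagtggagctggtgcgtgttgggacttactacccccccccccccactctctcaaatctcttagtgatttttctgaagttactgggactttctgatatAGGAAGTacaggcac

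Ms4a4c and Ms4a4b shared an unbroken run of 20 bases within the 250 bases before their starts. Ms4a6c and Ms4a6b shared a longer run of 48 bases, and every other pair of windows shared at most 9. The letters AGGAAGT, a core sequence bound by the myeloid factor PU.1, occurred in 2 of the 7 windows when both strands were searched, against 7.69% of 32851 promoters. They began 17 bases before the start in Ms4a6c, and 86 and 43 bases before it in Ms4a6b. The matches at 17 and 86 bases lie at the same place in the shared run of 48 bases. That run began 49 bases before the start in Ms4a6c and 118 before it in Ms4a6b. The 2 windows are therefore not independent in this count. The AP-1 letters TGANTCA occurred in 1 window, that of Ms4a7, against 6.75% of all promoters. The C/EBP letters TTGCNNAA and the core of the interferon-stimulated response element occurred in 0 windows, against 9.56% and 2.98% of all promoters. These are matches of letters in short windows and were not tested against binding.

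The measured quantity was TPM, a read abundance corrected for transcript length and brought to the same sum in every library, so that levels may be compared between genes. Values bottomed out at 1.01 TPM in each library, a floor that is read here as not detected. These values come without read counts, so sequencing depth and counting error are unknown. WT-NCD replicate 3 stood apart from the rest. In it 39677 genes exceeded the floor, while the other 11 libraries had 12940 to 18775 such genes, and its log2(TPM + 1) correlated with theirs across genes at −0.27 to −0.07, where theirs reached 0.85 to 0.99 with each other. All 21 Ms4a genes were above the floor in it, at 2.28 to 13.2 TPM, including 9 that were at the floor in the other 11 libraries. Tests on the Ms4a genes are therefore given with and without it. The libraries also differed in composition. The share of TPM on protein-coding genes was 15.7% to 25.2% in the HFD libraries and 22.3% to 42.4% in the NCD libraries other than WT-NCD replicate 3, and U3 small nucleolar RNA held 25.8% to 58.5% of the TPM on HFD and 1.24% to 4.84% on NCD. For this reason, values rescaled to a common total of protein-coding genes (rescaled TPM) are given beside the deposited ones. Casp4, which encodes caspase-11, was at 5.60 to 15.6 TPM in WT libraries and at 4.93, 2.56 and 15.2 TPM in Casp11-/- NCD and 2.78, 8.68 and 4.73 TPM in Casp11-/- HFD replicates 1 to 3. The TPM of a whole gene does not show whether the deleted part was read, so genotypes are given as labelled, and the heading of the values of Casp11-/- HFD replicate 2 abbreviates the genotype unlike the others.

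Of the 7 genes, 6 were detected in all 12 libraries, and they spanned a wide range of levels. Ms4a4b was the most abundant, with a median of 90.4 TPM over the 11 libraries other than WT-NCD replicate 3. Ms4a6b followed at 61.3, Ms4a4c at 35.4, Ms4a6c at 28.1, Ms4a6d at 16.0 and Ms4a4a at 5.23 TPM. Ms4a7 had its median at the floor and was above it in 4 of the 11 libraries. Some neighbours in this order were not separated. Ms4a4b exceeded Ms4a6b in 8 of 11 libraries, by 0.35 ± 0.56 on the log2 scale (SD, n = 11). Ms4a6c exceeded Ms4a6d in 9 of 11 libraries, by 0.76 ± 0.78. Ms4a6b was above Ms4a4c (0.82 ± 0.27), Ms4a6d above Ms4a4a (1.65 ± 0.69) and Ms4a4a above Ms4a7 (2.17 ± 1.29, with Ms4a7 mostly at the floor) in all 11, and Ms4a4c was above Ms4a6c in 10 (0.30 ± 0.23).

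**Figure D1:**
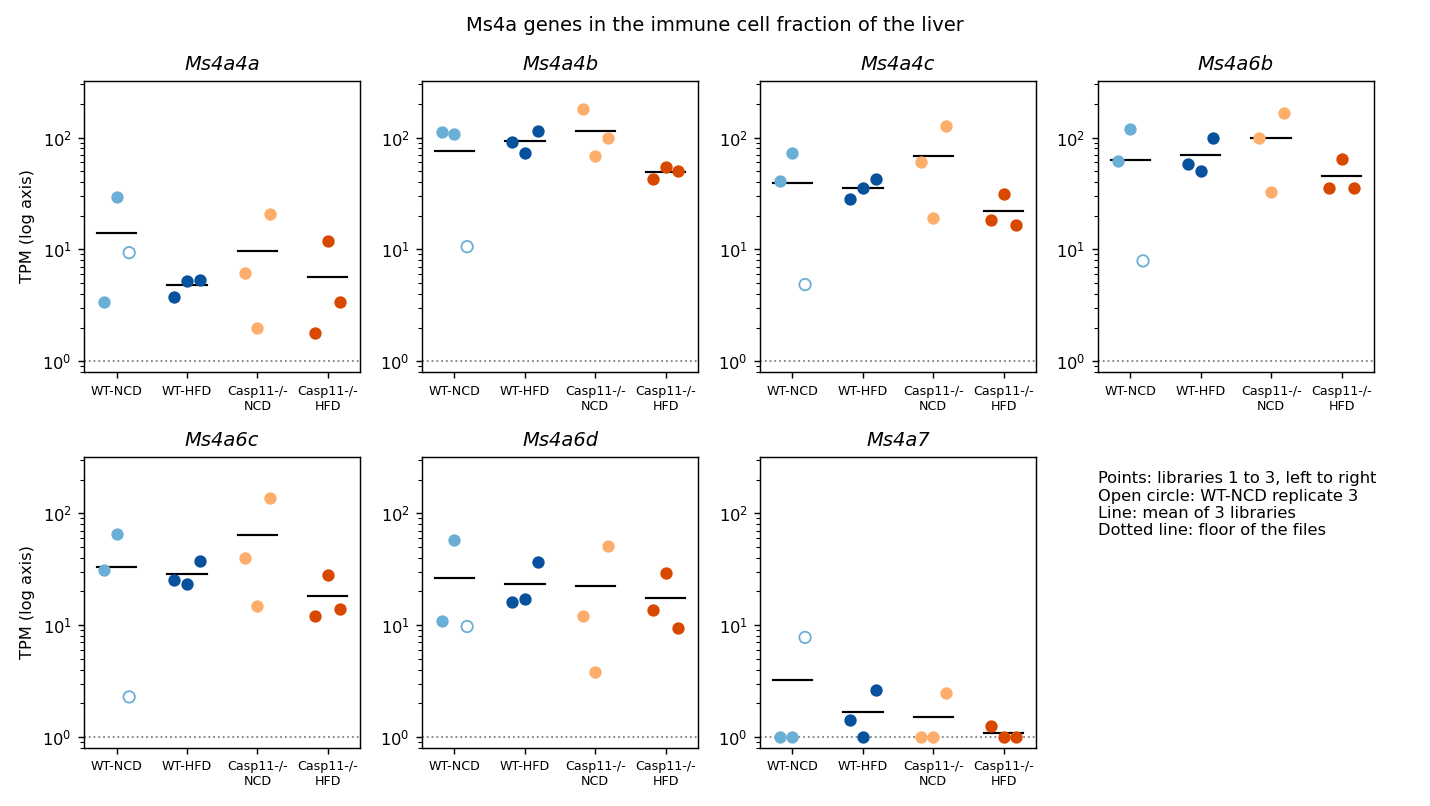
TPM (log axis) of each of the 7 Ms4a genes in the 12 libraries, by group. Points are libraries in the order of their replicate numbers, the open circle is WT-NCD replicate 3, the line is the mean of 3 libraries and the dotted line is the floor of 1.01 TPM. Within groups the points spread widely, Casp11-/- HFD is the tightest group for Ms4a4b (42.7 to 54.1 TPM), and Ms4a7 sits at or near the floor apart from the open circle.

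The monocyte-linked genes were uneven within groups. For Ms4a6c, WT-NCD replicates 1 to 3 held 31.1, 65.3 and 2.28 TPM, and WT-HFD replicates held 25.5, 23.5 and 37.3 TPM. It was at 40.05, 14.9 and 137 TPM in Casp11-/- NCD and at 12.1, 28.1 and 14.0 TPM in Casp11-/- HFD. Casp11-/- NCD replicate 3 was highest of all libraries, 9.20 times the lowest of its own group. Ms4a4c repeated this shape, with WT-NCD values of 40.6, 72.9 and 4.84 TPM, then 28.4, 35.4 and 42.8 TPM in WT-HFD, 60.7, 18.9 and 127 TPM in Casp11-/- NCD, and 18.4, 31.5 and 16.5 TPM in Casp11-/- HFD. Ms4a6b, also found on T cells, had WT-NCD values of 61.3, 119.8 and 7.89 TPM, then 58.2, 49.99 and 99.5 TPM in WT-HFD, 98.0, 32.3 and 167 TPM in Casp11-/- NCD, and 35.4, 63.7 and 35.5 TPM in Casp11-/- HFD. For all 3 genes the groups overlapped in every comparison of diet or genotype. On deposited TPM without overlap, 1.27% of all genes were lower and 1.21% higher in Casp11-/- NCD than in WT-NCD.

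Ms4a6d and Ms4a4a, known from macrophages, were at lower levels. Ms4a6d, the partner of Vsig4, had WT-NCD values of 10.8, 57.9 and 9.71 TPM, then 16.0, 17.1 and 37.0 TPM in WT-HFD, 12.03, 3.78 and 50.6 TPM in Casp11-/- NCD, and 13.6, 29.5 and 9.39 TPM in Casp11-/- HFD. Ms4a4a, the partner of Dectin-1, had WT-NCD values of 3.37, 29.1 and 9.34 TPM, then 3.76, 5.23 and 5.37 TPM in WT-HFD, 6.19, 1.97 and 20.9 TPM in Casp11-/- NCD, and 1.80, 11.8 and 3.41 TPM in Casp11-/- HFD. WT-NCD replicate 2 and Casp11-/- NCD replicate 3 were the highest libraries for both genes, and the groups overlapped. Ms4a7 was above the floor in WT-HFD replicates 1 and 3 (1.42 and 2.63 TPM), Casp11-/- NCD replicate 3 (2.49 TPM), Casp11-/- HFD replicate 1 (1.26 TPM) and WT-NCD replicate 3 (7.75 TPM), and at the floor in the other libraries. No difference was detectable at a level this close to the floor, so no fold of Ms4a7 is listed with the group comparisons. Its fitted values enter the counts and medians over the 7 genes, the plot of log2 fold changes and the ranges under alternative processing. Since Ms4a7 was mostly at the floor, these values are not read as differences.

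Ms4a4b was the gene with the clearest grouping. Its WT-NCD values were 111, 107 and 10.6 TPM; it was at 90.4, 72.3 and 115 TPM in WT-HFD, at 178, 69.0 and 98.6 TPM in Casp11-/- NCD, and at 42.7, 54.1 and 50.7 TPM in Casp11-/- HFD. All 3 Casp11-/- HFD libraries were below all 3 WT-HFD libraries and below all 3 Casp11-/- NCD libraries. In rescaled TPM, Casp11-/- HFD stood at 58.9, 61.2 and 58.6, WT-HFD at 97.9, 122 and 121, Casp11-/- NCD at 129, 81.9 and 61.9, and WT-NCD replicates 1 and 2 at 86.9 and 75.2. The separation from WT-HFD was thus wide on both scales, and that from Casp11-/- NCD was narrow after rescaling, where the highest Casp11-/- HFD library was at 61.2 and the lowest Casp11-/- NCD library at 61.9.

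Groups were compared with limma on log2(TPM + 1) over the 19498 genes that exceeded the floor in 3 libraries or more, and a call required an adjusted p (Benjamini-Hochberg over all of them) under 0.05. The first question was whether HFD changed these genes in WT mice. None of the 7 was called (0 of 7 by limma, 0 also at an unadjusted p under 0.05), where 0.113% of all genes were called and 6.96% had an unadjusted p under 0.05. The log2 differences of HFD from NCD were 0.82 ± 0.80 for Ms4a4b, 0.73 ± 0.91 for Ms4a6b, 0.61 ± 1.04 for Ms4a6c, 0.46 ± 0.90 for Ms4a4c, 0.22 ± 0.90 for Ms4a6d and −0.95 ± 0.87 for Ms4a4a (± SE). Their adjusted p in limma ranged from 0.548 to 0.914 over the 7 genes, whose median difference was 0.46 against −0.51 for all genes. The positive values rested on WT-NCD replicate 3: without it they became −0.26, −0.37, −0.66, −0.62 and −0.21 in the same order, with Ms4a4a at −0.9996. The call count was 0 again, against 2.18% of 17950 genes. On rescaled values without that library, the differences were 0.48 ± 0.27 for Ms4a4b, 0.37 ± 0.45 for Ms4a6b, 0.07 ± 0.62 for Ms4a6c, 0.11 ± 0.52 for Ms4a4c, 0.50 ± 0.88 for Ms4a6d and −0.35 ± 0.92 for Ms4a4a, with 0 of 7 called and 0.194% of 12369 protein-coding genes called. Over these fits, the direction of the diet difference in WT mice thus turned for 6 of the 7 genes. They include Ms4a7, which was mostly at the floor. Over all processing alternatives given below, Ms4a4a turned too, with values from −1.63 to 0.93. For Ms4a6c on rescaled values the 95% interval ran from −1.35 to 1.48. No gene was separated between the diets on deposited TPM, where 13.7% of all genes were lower and 1.98% higher on HFD without overlap. On rescaled values without WT-NCD replicate 3, Ms4a4b alone was higher in all 3 WT-HFD libraries than in both WT-NCD libraries, as 22.4% of all genes were.

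In Casp11-/- mice, the same question gave lower values on HFD for most of the genes, and 0 of 7 calls by limma, where 0% of all genes were called and 8.48% had an unadjusted p under 0.05. The log2 differences were −1.32 ± 1.04 for Ms4a6c, −1.28 ± 0.90 for Ms4a4c, −1.11 ± 0.80 for Ms4a4b, −0.90 ± 0.91 for Ms4a6b, −0.52 ± 0.87 for Ms4a4a and 0.18 ± 0.90 for Ms4a6d (± SE), with adjusted p from 0.581 to 0.974 over the 7 genes. Their median was −0.90 against −0.43 for all genes. In the fit without WT-NCD replicate 3, which narrows the spread shared by all groups, Ms4a4b, Ms4a4c and Ms4a6c had unadjusted p of 0.0252, 0.0288 and 0.0350 in limma and adjusted p of 0.153, 0.157 and 0.166. That is 3 of 7 genes at an unadjusted p under 0.05 against 27% of all genes, and 0 called against 1.1%. On rescaled values the differences shrank to −0.54 ± 0.24 for Ms4a4b, −0.71 ± 0.47 for Ms4a4c and −0.76 ± 0.55 for Ms4a6c, with limma adjusted p of 0.222, 0.386 and 0.407, and 0 of 7 were called against 0.428% of all genes. Ms4a6d was at 0.74 ± 0.79 on that scale. Ms4a4b was the 1 gene whose Casp11-/- groups did not overlap, lower on HFD, as 15.1% of all genes were on deposited TPM (2.08% were higher) and 13.8% on rescaled values. Single libraries turned the direction of some genes: Ms4a4a was at 0.23 without Casp11-/- NCD replicate 3, and Ms4a6d at −0.64 without Casp11-/- NCD replicate 2 and at −0.26 without Casp11-/- HFD replicate 2.

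**Figure D2:**
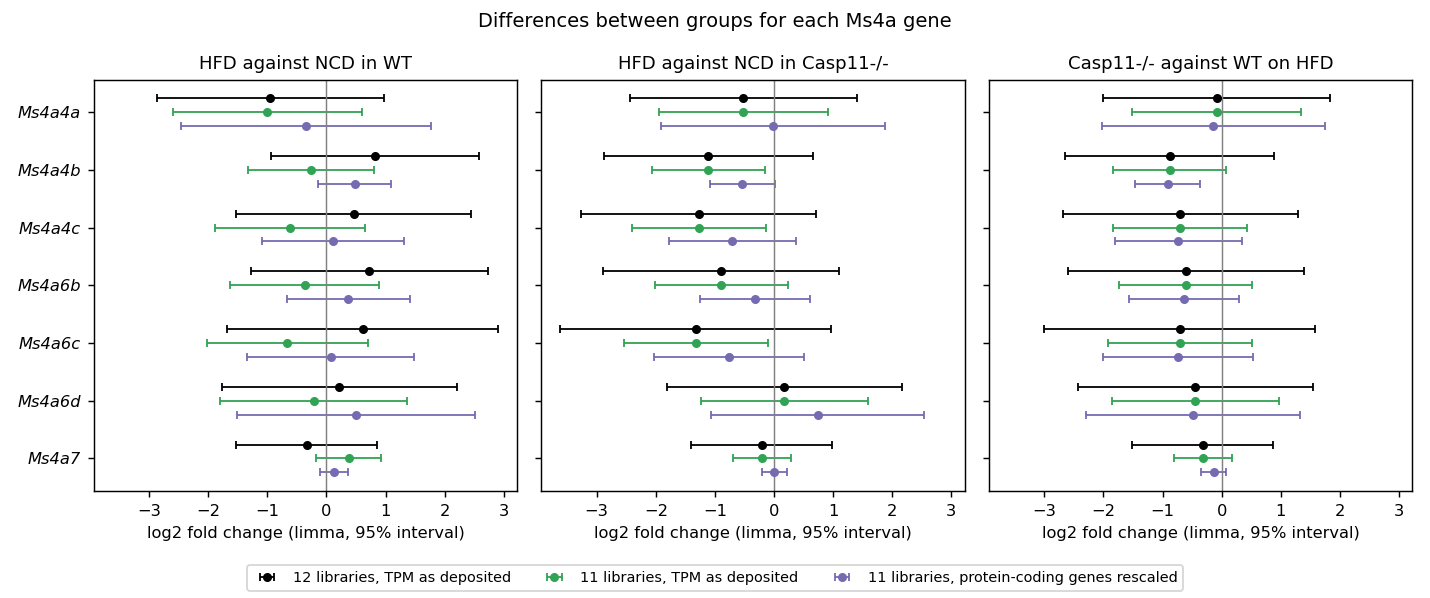
Log2 fold changes of each Ms4a gene with 95% intervals from limma, for HFD against NCD in WT, HFD against NCD in Casp11-/- and Casp11-/- against WT on HFD. Black points are all 12 libraries with TPM as deposited, green points the 11 libraries without WT-NCD replicate 3, and purple points those 11 with protein-coding genes rescaled. Nearly all intervals include 0; in WT, 5 genes lie above 0 in black and below it in green, and the purple interval of Ms4a4b on HFD runs from −1.47 to −0.36.

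Between the genotypes on HFD, all 7 genes had lower means of log2(TPM + 1) in Casp11-/- mice. In mean TPM, Ms4a4a was higher in Casp11-/- HFD (5.68) than in WT-HFD (4.79). By limma, 0 of 7 were called (0 also at an unadjusted p under 0.05). Of all genes, 0% were called and 0.154% had an unadjusted p under 0.05. The log2 differences were −0.88 ± 0.80 for Ms4a4b, −0.71 ± 1.04 for Ms4a6c, −0.70 ± 0.90 for Ms4a4c, −0.61 ± 0.91 for Ms4a6b, −0.44 ± 0.90 for Ms4a6d and −0.08 ± 0.87 for Ms4a4a (± SE), with an adjusted p of 1 for each. The median of the 7 was −0.61 and that of all genes −0.02. Ms4a4a changed sign when single libraries were left out, to 0.39 without Casp11-/- HFD replicate 1 and 0.06 without replicate 3. Ms4a4b was the 1 gene whose groups did not overlap, as 2.87% of all genes were lower and 0.836% higher without overlap on deposited TPM and 6.72% on rescaled values. Its difference on rescaled values without WT-NCD replicate 3 was −0.92 ± 0.24 (95% interval −1.47 to −0.36), lower in 3 of 3 libraries, with an unadjusted p of 0.00497 in limma and an adjusted p of 1; in that fit 0.00808% of all genes were called. It stayed between −1.05 and −0.71 over 21 settings, which include the main fit and each HFD library left out in turn. Its lowest adjusted p in limma over these settings was 0.925. The difference of Ms4a4b was thus larger than the spread within both HFD groups and did not pass the correction over all genes.

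Between the genotypes on NCD, the values of 4 genes depended on WT-NCD replicate 3. With all libraries, Ms4a6c, Ms4a4b, Ms4a4c and Ms4a6b were at 1.23 ± 1.04, 1.05 ± 0.80, 1.04 ± 0.90 and 1.02 ± 0.91 above WT on the log2 scale. Without that library they were at −0.04, −0.03, −0.04 and −0.08. Ms4a6d and Ms4a4a were lower in Casp11-/- mice in both fits, at −0.40 ± 0.90 and −0.51 ± 0.87 with all libraries and at −0.84 ± 0.77 and −0.56 ± 0.78 without it. None of the 7 was called in either fit (adjusted p from 0.555 to 0.812, and 1), where 0% and 0.0557% of all genes were called (0.0404% on rescaled values). The interaction of diet and genotype called 0 of 7 as well, against 0% of all genes (0.00557% without WT-NCD replicate 3). Ms4a4b had the interaction with the smallest p, at −1.93 ± 1.13 with all libraries (limma adjusted p 0.780) and at −1.02 ± 0.36 on rescaled values without WT-NCD replicate 3, where its unadjusted p was 0.0221 and its adjusted p 0.881. Averaged over both genotypes, the diet called 0 of 7 genes, against 0.554% of all genes with all libraries, 18.3% without WT-NCD replicate 3 and 8.46% on rescaled values. Without WT-NCD replicate 3, Ms4a4c and Ms4a6c had averaged diet differences of −0.95 ± 0.41 and −0.99 ± 0.44, with adjusted p of 0.0985 and 0.108, and on rescaled values they were at −0.30 ± 0.35 and −0.34 ± 0.41. Averaged over both diets, the genotype called 0 of 7, against 0% of all genes (0.00557% without WT-NCD replicate 3).

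No group difference of an Ms4a gene passed the test, but several of the genes varied together across libraries. The fraction holds several cell types, and for a gene in such bulk RNA, fewer cells of a type and less RNA per cell cannot be told apart. Markers of macrophages (Adgre1 at a median of 28.03, Csf1r at 55.1 and Cd68 at 62.2 TPM), monocytes (Ly6c2 at 219 and Ccr2 at 60.4 TPM) and T cells (Cd3e at 27.0 TPM) were all detected in each of the 11 libraries, as was the hepatocyte gene Alb, at a median of 9891 TPM. The mean log2 of each marker list in rescaled values was therefore set beside each of the 6 detected genes over these 11 libraries, which gave 66 relations, of which 4 had an adjusted p under 0.05 in permutation tests. All 4 were with the monocyte list (11 genes, among them Ly6c2, Ccr2 and Plac8). Ms4a6c had a Pearson r of 0.96 and a Spearman rho of 0.95 with it (permutation p 1e-05 and 3e-05, n = 11, adjusted p 0.00033; 1e-05 is the smallest the permutations give). Ms4a4c followed with 0.95 and 0.95 (permutation p 1e-05 for each, adjusted p 0.00033), Ms4a6b with 0.93 and 0.94 (permutation p 5e-05 and 9e-05, adjusted p 0.0011), and Ms4a4a with 0.85 and 0.85 (permutation p 0.00081 and 0.0014, adjusted p 0.0134). Without the 2 libraries farthest from the median of the list, Casp11-/- NCD replicate 2 and Casp11-/- HFD replicate 3, r was 0.95, 0.92, 0.89 and 0.84 for these genes. As deviations from the group means it was 0.96, 0.95, 0.98 and 0.92, so the relation held within groups. The lists were written with earlier results of these data known, and the permutations moved libraries across groups. The monocyte list also holds Plac8, Chil3 and F13a1, which are among the nearest genes of Ms4a4c and Ms4a4a given below. These p-values are therefore not an independent test of the label. As a description, the label of myeloid cells fits these 4 genes by this measure. Ms4a6d was at r = 0.72 and rho = 0.75 (permutation p 0.0148 and 0.01, adjusted p 0.195), with 0.58 without the 2 farthest libraries and 0.95 within groups.

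**Figure D3:**
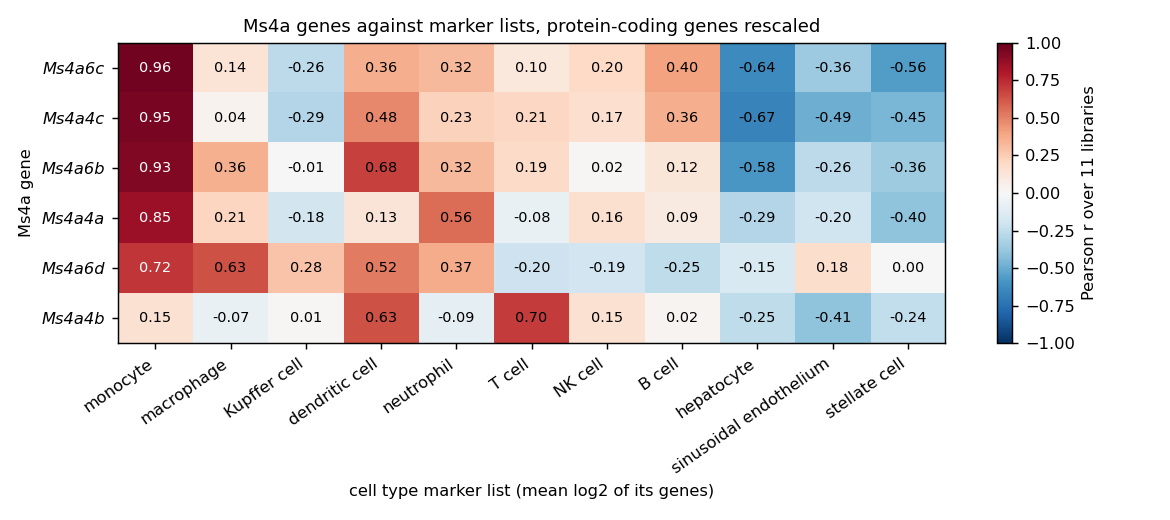
Pearson r over 11 libraries between 6 Ms4a genes (rows) and the mean log2 of 11 cell type marker lists (columns), with protein-coding genes rescaled. The monocyte column runs from 0.96 for Ms4a6c down to 0.72 for Ms4a6d and drops to 0.15 for Ms4a4b, whose highest value is 0.70 in the T cell column.

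Ms4a4b went against the label. Its r with the monocyte list was 0.15 (rho 0.33, permutation p 0.644 and 0.327), and its highest r was with the T cell list, at 0.70 (rho 0.71, permutation p 0.0197 and 0.0186, adjusted p 0.213). That r was 0.70 without Casp11-/- NCD replicate 1 and WT-NCD replicate 2, and 0.84 as deviations from the group means, but it did not pass the correction over 66 relations. The other 5 genes had r of −0.20 to 0.21 with the T cell list. With the dendritic cell list, r was 0.68 for Ms4a6b (rho 0.70, permutation p 0.0231 and 0.0207, adjusted p 0.213; 0.43 without the 2 farthest libraries), 0.63 for Ms4a4b (rho 0.59, permutation p 0.0397 and 0.0616, adjusted p 0.238; 0.65) and 0.52 for Ms4a6d. With the macrophage list it was 0.63 for Ms4a6d (rho 0.47, permutation p 0.039 and 0.146, adjusted p 0.238; 0.32 without the 2 farthest libraries), 0.21 for Ms4a4a and −0.07 to 0.36 for the other 4 genes. As deviations from the group means, r with the macrophage list was 0.71 for Ms4a6c, 0.67 for Ms4a6d and 0.61 for Ms4a6b. It was 0.56 for Ms4a4a, 0.44 for Ms4a4c and −0.65 for Ms4a4b, and these values were not tested. The hepatocyte list had r of −0.67 to −0.15 with the 6 genes. The pairs of Ms4a4b with the other Ms4a genes were at −0.12 to 0.34, where Ms4a4c and Ms4a6c reached 0.95, Ms4a4c and Ms4a6b 0.91, and Ms4a6b and Ms4a6c 0.90. On deposited TPM, where all genes share the composition of the library, the pairs of Ms4a4b were at 0.24 to 0.71. Reads of 75 bases rarely fit a pair of these genes: Ms4a4c shared 3.78% of its 75-base stretches with another gene, Ms4a6c 2.88%, Ms4a4b 1.18%, Ms4a6b 0.632%, Ms4a6d 0.408%, and Ms4a4a and Ms4a7 shared 0. How the authors counted reads that fit several genes is not given in the sources used here, so small parts of the levels of Ms4a4b and Ms4a4c, or of Ms4a6b and Ms4a6c, are uncertain.

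**Figure D4:**
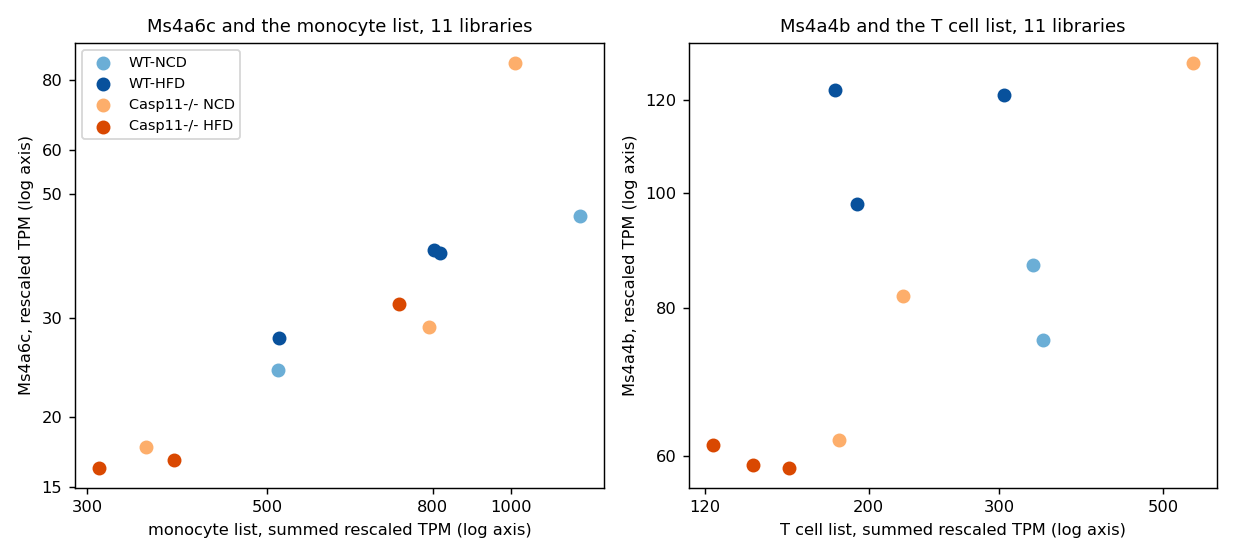
Ms4a6c against the summed monocyte list and Ms4a4b against the summed T cell list in rescaled TPM (both axes log), for the 11 libraries other than WT-NCD replicate 3, coloured by group. Ms4a6c follows the monocyte list in every group, from 16.2 to 85.8, while Ms4a4b in WT-HFD (97.9 to 122) lies above other libraries with a like T cell list, and Casp11-/- HFD is lowest on both axes of the right panel.

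T cell and dendritic cell markers were low beside the low Ms4a4b of Casp11-/- HFD. The summed T cell list was 140, 123 and 156 rescaled TPM there, against 193, 180 and 305 in WT-HFD, 550, 223 and 182 in Casp11-/- NCD, and 333 and 344 in WT-NCD replicates 1 and 2, as a sum over the 12 protein-coding genes of the list. At least 13 of all 14 listed genes were above the floor in each library. All 14 T cell genes had lower means in Casp11-/- HFD than in WT-HFD, with a median log2 difference of −0.65 against −0.02 for all genes, and 0 were called by limma (0 at an unadjusted p under 0.05). The dendritic cell list was at 126, 99.6 and 78.8 rescaled TPM in Casp11-/- HFD and at 166, 178 and 268 in WT-HFD, which did not overlap. Of its 9 genes, 8 had lower means of log2(TPM + 1), with a median difference of −0.82, and 0 were called by limma. With all 12 libraries, 0 had an unadjusted p under 0.05 in limma, against 0.154% of all genes. Without WT-NCD replicate 3, 3 did. The share of all genes in that fit is not given here, so this count is not read as a difference. Other lists were lower than in WT-HFD too. Lower means of log2(TPM + 1) were found for 9 of 12 macrophage, 9 of 11 monocyte, 8 of 10 Kupffer cell and 7 of 10 NK cell genes. Their medians were −0.48, −0.48, −0.39 and −0.22. Of the B cell genes 6 of 10 were lower (−0.06), while 7 of 10 neutrophil and 10 of 10 hepatocyte genes were higher (0.37 and 0.38). The part of any of these cells in the difference of Ms4a4b was not tested. In WT mice Ms4a4b and the T cell list parted: on HFD the T cell list was lower than in WT-NCD replicates 1 and 2 while Ms4a4b was higher in rescaled TPM.

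By the closest match among 7387 protein-coding genes with a mean of at least 5 TPM, the Ms4a genes fell in with different neighbours. Ms4a6c and Ms4a4c were each other's nearest gene (r = 0.95, n = 11 libraries, no p is given for a maximum), followed by Gm21188 (0.94) and Rassf4 (0.94) for Ms4a6c and by Rassf4 (0.94) and the monocyte gene Plac8 (0.94) for Ms4a4c. Ms4a6b was nearest to Tyrobp (0.96), an adaptor of myeloid and NK cell receptors, to the protease gene Ctss (0.95) and to Sirpb1a (0.95). Ms4a4a was nearest to the monocyte genes Chil3 (0.94), Tgfbi (0.93) and F13a1 (0.92). Ms4a6d was nearest to Rab32 (0.92), to the RNA sensor gene Tlr8 (0.91) and to the interferon-induced gene Ifitm3 (0.91). Ms4a4b was nearest to Cd96 (0.90), Cxcr6 (0.89) and Cd4 (0.86), which are expressed by T cells. Cd4 is itself in the T cell list, so its closeness is not separate from the r with that list. The nearest gene of Ms4a7 was Ptges3 (0.80), over libraries of which 7 had Ms4a7 at the floor.

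Among the partners named above, Vsig4 passed the test. Of 10 partner and adaptor genes, 1 rose in WT mice on HFD and 0 fell. It was Vsig4, whose WT-NCD values were 6.41, 5.34 and 9.28 TPM and whose WT-HFD values were 143, 46.6 and 86.4 TPM, a log2 difference of 3.42 ± 0.49 (limma adjusted p 0.0346). In Casp11-/- mice Vsig4 went from 5.96, 6.06 and 11.7 to 68.0, 41.6 and 82.4 TPM (2.87 ± 0.49, adjusted p 0.538; 0.00535 without WT-NCD replicate 3). Ms4a6d, its partner, was at 0.22 ± 0.90 and 0.18 ± 0.90 in the same comparisons, with overlapping groups in both. The summed Kupffer cell list, of which Vsig4 is a member, was at 35.8 to 65.1 rescaled TPM on NCD (without WT-NCD replicate 3) and at 218 to 618 on HFD, with 2 of its 10 genes called higher in WT mice and 0 in Casp11-/- mice (against 0.113% and 0% of all genes), and 5 and 4 without WT-NCD replicate 3 (against 2.18% and 1.1%). The r of this list with the 6 Ms4a genes was −0.29 to 0.28. Clec7a, the partner of Ms4a4a, had WT-NCD values of 23.95, 35.8 and 5.82 TPM, then 50.8, 41.9 and 88.0 TPM in WT-HFD (1.66 ± 0.84, limma adjusted p 0.513). Its WT groups did not overlap, and 1.98% of all genes were likewise higher on HFD without overlap. The WT groups of Ms4a4a overlapped. Tnfrsf18, the partner of Ms4a4b, was at 18.5, 5.04 and 11.7 TPM in Casp11-/- NCD and 2.10, 3.44 and 4.06 TPM in Casp11-/- HFD (−1.48 ± 0.52, limma adjusted p 0.538). It was lower on HFD without overlap, as Ms4a4b and 15.1% of all genes were. In WT mice Tnfrsf18 was also lower without overlap, at 9.38, 13.1 and 12.9 TPM on NCD and 4.26, 2.27 and 7.60 TPM on HFD. There 13.7% of all genes were lower without overlap, and the WT groups of Ms4a4b overlapped. Of the other Ms4a genes and their relatives Tmem176a and Tmem176b, Ms4a19 was not in the list of 15, of which 7 were tested and 0 were called in WT or Casp11-/- mice on HFD. Ms4a1 was at 28.2 to 247 TPM over 11 libraries, Tmem176a at 20.8 to 60.4, Tmem176b at 15.1 to 42.9, Ms4a8a at 1.21 to 26.8, Ms4a2 at the floor to 7.67 and Ms4a10 at the floor to 1.70. The remaining partners, Fcer1g (106 to 971 TPM), Tyrobp (106 to 709), Syk (15.8 to 228), Nlrp3 (1.95 to 17.3), Card9, Fcer1a and Trem2 (the last 3 from the floor to 8.84, 7.17 and 6.00), were not called in either diet comparison. No gene of the other cell type lists (macrophage, monocyte, T cell, NK cell, B cell, dendritic cell, neutrophil, hepatocyte, sinusoidal endothelium and stellate cell) was called with all 12 libraries in the 4 comparisons of groups. That count rested on WT-NCD replicate 3. Without it, 5 of 10 B cell genes and 2 of 10 NK cell genes were called lower and 3 of 12 macrophage genes higher in WT mice on HFD, against 2.18% of all genes. In Casp11-/- mice the same fit called 6 B cell genes, 1 monocyte gene and 1 T cell gene lower and 2 macrophage genes and 1 endothelial gene higher, against 1.1% of all genes. On rescaled values the B cell, NK cell, monocyte, T cell and endothelial lists had 0 calls in both diet comparisons, and macrophage genes had 1 and 3. All 10 B cell genes were lower on HFD in both genotypes, with medians of −2.35 in WT and −2.23 in Casp11-/- mice without that library, and −0.79 in WT with it. The hepatocyte genes turned in WT mice, from 10 of 10 higher (median 1.68) to 9 of 10 lower (−0.69) without that library and 7 of 10 higher (0.06) on rescaled values, and were 10 of 10 higher in Casp11-/- mice (0.92). The sinusoidal endothelial genes were 9 of 9 higher in WT mice (1.68) and 8 of 9 higher without that library (0.49), and 9 of 9 higher in Casp11-/- mice (2.10). The part of these cells in the Ms4a values was not tested.

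The proportions of the Ms4a genes within a library were also compared, as ratios of TPM that do not depend on the scaling of the library. This comparison was chosen after the data were seen. Over the 11 libraries and 15 pairs of the 6 detected genes, 3 ratios differed between diets at p under 0.05 in exact permutation tests within genotype (200 rearrangements of the libraries, two-sided), and 0 after adjustment over the 15 pairs. With all 12 libraries 2 did, and again 0 after adjustment. The ratio of Ms4a6d to Ms4a4a was 3.19 and 1.99 in WT-NCD replicates 1 and 2 and 4.25, 3.27 and 6.90 in WT-HFD. It was 1.94, 1.92 and 2.43 in Casp11-/- NCD and 7.59, 2.49 and 2.75 in Casp11-/- HFD. The ratio was thus higher on HFD without overlap within each genotype, though narrowly (3.27 against 3.19, and 2.49 against 2.43), by 0.85 on the log2 scale (0.86 in WT and 0.84 in Casp11-/- mice, exact permutation p = 0.0150, adjusted 0.125). With WT-NCD replicate 3, where the ratio was 1.04, the difference was 1.06 (exact permutation p = 0.00500, the smallest 400 rearrangements can give, adjusted 0.0750). The ratio of Ms4a6d to Ms4a6c was 0.300, 0.255 and 0.370 in Casp11-/- NCD and 1.13, 1.05 and 0.670 in Casp11-/- HFD, 1.60 higher on the log2 scale without overlap. In WT it was 0.347 and 0.887 in NCD replicates 1 and 2 and 0.627, 0.728 and 0.993 on HFD, which overlapped (both genotypes 1.04, exact permutation p = 0.0250, adjusted 0.125). It rested on leaving out WT-NCD replicate 3, whose ratio was 4.26; with it the difference was 0.55 (exact permutation p = 0.415). The ratio of Ms4a6b to Ms4a6c was 0.38 higher on HFD (exact permutation p = 0.0250, adjusted 0.125), and 0.24 with all 12 libraries (exact permutation p = 0.350). The ratio of Ms4a6b to Ms4a4c was 0.32 higher on HFD with all 12 libraries (exact permutation p = 0.0300, adjusted 0.225) and 0.33 higher over 11 (exact permutation p = 0.0600, adjusted 0.180), without overlap in Casp11-/- mice (1.61, 1.71 and 1.32 on NCD against 1.92, 2.02 and 2.15 on HFD) and with overlap in WT. The ratio of Ms4a4c to Ms4a6c, the closest pair, differed between diets by 0.05 (exact permutation p = 0.750).

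**Figure D5:**
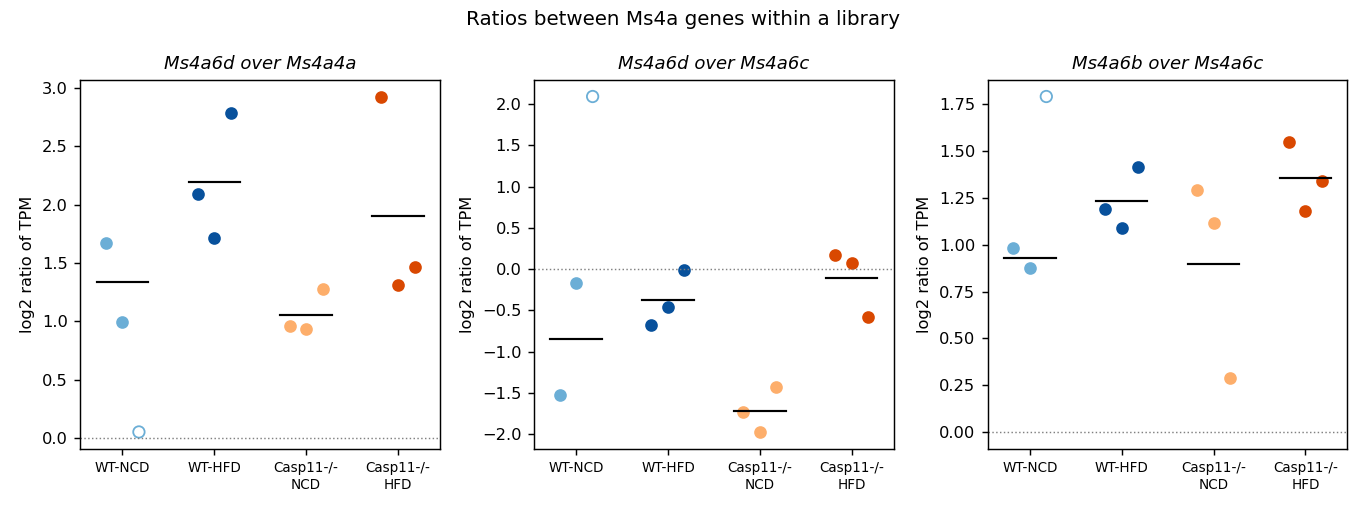
Log2 ratios of TPM between Ms4a genes within each library, by group: Ms4a6d over Ms4a4a, Ms4a6d over Ms4a6c and Ms4a6b over Ms4a6c. Points are libraries, the open circle is WT-NCD replicate 3, and the line is the mean of the group without it. In the left panel the HFD libraries lie above the NCD libraries of their own genotype, while in the middle panel this holds for Casp11-/- mice and the WT groups overlap.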

How the data were processed

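RNA was measured in 12 libraries, 3 per group, grouped by their titles per the labels. The deposited score values are TPM that the authors computed after aligning single-end reads of 75 bases to mm10 (GRCm38.p6) with STAR, in Qlucore Omics Explorer. Their lowest value, 1.01, appears in every file as a floor. Each file held 6 rows without a gene name, which were left out. How reads that fit several genes were counted is not given in the sources used here. The authors gave no counts with these TPM, so the depth is unknown and the number of libraries limits the precision.

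Groups were compared with limma 3.58.1 (R 4.3.3) on log2(TPM + 1), modelling the trend of the variance, with 1 spread for the 4 groups, over genes exceeding the floor in 3 libraries or more, two-sided, with Benjamini-Hochberg adjustment. A log2 fold change with this pseudocount understates the change of low genes. Rescaled TPM set the 21709 protein-coding genes (RefSeq types) to a common total and raised them to a common floor of 1.87. The steps were tested on simulated data. Correlations, exact tests and figures used Python 3.11.15, numpy 2.4.6, pandas 2.3.3, SciPy 1.17.1 and matplotlib 3.10.9. Correlations used 100000 permutations with the seed 20230126. Coordinates came from GENCODE on GRCm38 and promoters from RefSeq. Named are all 7 Ms4a genes, Casp4, partner and family genes above the floor in 3 libraries or more, the first 3 markers of a list set beside a member, and the 3 genes of highest r with each Ms4a gene. The members and lists were chosen with earlier results of these data known. The lists were other MS4A family, Ms4a partners, macrophage, Kupffer cell, monocyte, T cell, NK cell, B cell, dendritic cell, neutrophil, hepatocyte, sinusoidal endothelium and stellate cell, written from general knowledge. The labels number the mice M1 to M3 and say no more of them, so p-values measure the spread between these samples. No pair of libraries was identical (0 pairs). Alternatives were a pseudocount of 0.1, genes exceeding the floor in 1 library or more, a spread from the groups compared only, a block by replicate number, rescaling and each library left out. Leaving out a further library after rescaling, the block on rescaled values, the ratios and the permutation tests of correlation were added after seeing the data.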

Additional observations from a re-analysis of the deposited data

Results flagged for a closer look

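The diet difference of Ms4a4b pointed in opposite directions in the genotypes on rescaled values without WT-NCD replicate 3. It was 0.48 ± 0.27 in WT and −0.54 ± 0.24 in Casp11-/- mice on the log2 scale (± SE), and the difference between them was −1.02 in limma's interaction test (unadjusted p 0.0221, adjusted p 0.881, 3 libraries a group and 2 in WT-NCD). All 3 WT-HFD libraries were above both WT-NCD libraries, as 22.4% of the protein-coding genes tested were. All 3 Casp11-/- HFD libraries were below all 3 Casp11-/- NCD libraries, as 13.8% of these genes were. Ms4a4b was flagged because its groups separated in opposite directions in the genotypes. The interaction p therefore comes from the same values that selected the gene. On deposited TPM without WT-NCD replicate 3, the WT difference was −0.26 and the interaction −0.85 (limma adjusted p 1).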

How the results depend on the processing

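The count of Ms4a genes called was 0 in all 7 comparisons and in each of the 163 alternatives over them, and the lowest adjusted p of an Ms4a gene anywhere was 0.0823 in limma. Directions were less stable. In WT mice, the diet difference over the 6 libraries left out in turn ranged from −0.26 to 1.38 for Ms4a4b, −0.62 to 1.21 for Ms4a4c, −0.37 to 1.51 for Ms4a6b, −0.66 to 1.51 for Ms4a6c, −0.21 to 1.02 for Ms4a6d and −0.69 to 0.37 for Ms4a7. Over all alternatives, which add a further library left out on rescaled values, Ms4a4a ranged from −1.63 to 0.93 and Ms4a6d from −0.57 to 1.57. On rescaled values without WT-NCD replicate 3, Ms4a7 turned to 0.13, and with 1 further library left out it was at 0.13 or 0.20, Ms4a4c at −0.22 or −0.11, Ms4a6b at −0.026 and Ms4a6c at −0.37, −0.019 or −0.0097. In Casp11-/- mice, the left-out ranges were −1.21 to 0.23 for Ms4a4a, −0.64 to 1.08 for Ms4a6d and −0.34 to 0.058 for Ms4a7, and with a further library left out on rescaled values Ms4a4a turned to 0.55, 0.41 or 0.15 and Ms4a6b to 0.010. Between the genotypes on HFD, Ms4a4a ranged from −0.71 to 0.39 and was at 0.11, 0.29 or 0.032 on rescaled values with a further library left out, and the other 6 genes stayed at or below 0. Of the single-gene values under alternatives, 36 turned direction and 398 kept their direction and side of the threshold. The causes of these turns were not tested, and those of Ms4a7 rest on values mostly at the floor.

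Replicate numbers were shared by the groups, and the labels do not say whether they pair the samples. Correlations of deviations from group means ran from −0.37 to 0.44 over 15 same-numbered pairs and from −0.53 to 0.37 over 30 others. With at most 3 libraries a group, these ranges cannot settle whether the samples were paired. With the replicate number as a block, 0 of 7 genes were called in every comparison, and the WT diet comparison called 0 genes in place of 22. With the block on rescaled values without WT-NCD replicate 3, Ms4a6c turned to −0.11 and Ms4a7 to 0.087 in WT mice. Depth is unknown, so what a value near the floor could hide cannot be stated, and with 3 libraries a group, log2 differences of about 1 lay within the intervals of most of these genes.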
